A study of Mus musculus with 8 samples.

Results

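Expression was examined for 10 genes of the formative state of pluripotency, the state that embryonic cells pass through as they leave the naive state: Otx2, Fgf5, Pou3f1, Zic2, Zic5, Sox3, Utf1, Foxd3, Sox4 and Cdh2. They were taken by symbol from the 38991 genes listed for each library, and all 10 were found. Their levels in control and Prmt5 knockout cells were known when they were chosen, so their genotype differences are given as a description, and where the fit over all genes called a member, nothing is read from the call. Prmt5 encodes the arginine methyltransferase that modifies, among other proteins, the Sm proteins of the spliceosome.

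RNA was sequenced from 8 libraries of mouse embryonic stem cells, 4 of the control genotype iPHet and 4 of the knockout genotype iPKO. All were C57BL/6 cells derived from blastocysts of embryonic day 3.5, below passage 20, first grown on mouse embryonic fibroblasts with PD0325901 (an inhibitor of the kinase MEK) and LIF, then moved to the 2i ground state. Cells of both genotypes, the control included, received 2 µM 4-hydroxytamoxifen for 48 hours, the agent used to induce deletion of Prmt5, before the 2i medium was renewed. For most experiments a single male line stood for each genotype, PC1 for iPHet and PC4 for iPKO, so genotype and line cannot be told apart. As its name points to a heterozygote, the control may itself lack 1 intact copy of Prmt5. Whether the libraries are separate cultures is not stated, and p-values therefore measure the spread between libraries, which may be technical.

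The 2i condition holds cells in the naive state, that of the epiblast before implantation, by blocking MEK and GSK3 signalling. When the block is removed, naive factors are lost, and Otx2 and Pou3f1 help to move enhancer use toward the formative pattern, from which germ cells and the later germ layers can be induced. Fgf5 is the classical marker of the epiblast after implantation, and Otx2 is also known as a barrier to entry into the germ line.

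Levels are FPKM, fragment numbers scaled by transcript length and library size, as the authors deposited them. FPKM of all genes summed to between 411827 and 458856 per library, and 11640 to 12099 genes reached 1 FPKM. Prmt5 itself had 62.5 ± 10.4 FPKM in iPHet and 13.4 ± 1.56 in iPKO (SD, n = 4 each), with 52.8 to 72.2 and 11.8 to 15.0 in single libraries, in the direction of the labels. The libraries of a genotype fell into pairs, 1 with 3 and 2 with 4. The root mean square log2 difference over tested genes was 0.305 to 0.409 inside such a pair and 0.583 to 0.663 between odd-numbered and even-numbered libraries of the same genotype. Between iPHet and iPKO libraries that were both odd or both even it was 0.616 to 0.641. The odd and even libraries of a genotype thus lay about as far apart as the genotypes did. What this numbering stands for is not given, and the members' differences are therefore also given for odd and even libraries. Of the stem cell markers, all 6 were above 1 FPKM in at least 1 genotype. Among the fibroblast feeder markers, 1 of 9 reached that level, their summed level was 1.71 to 2.81 FPKM in iPHet and 1.22 to 2.05 in iPKO, and Postn and Lum were listed at 0 in every library.

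The 250 bases before the first annotated start were read for Otx2, the member with the largest log2 difference, and for Foxd3, a factor at a like level in iPKO whose genotype means lay close together. They are shown 5′ to 3′ on the gene's strand, from RefSeq on GRCm38.p6, with TAAT, the core that homeodomain proteins such as Otx2 recognise, in capitals on either strand and with overlaps allowed (chr14:48667645-48667894, minus strand, and chr4:99656049-99656298, plus strand).
Otx2: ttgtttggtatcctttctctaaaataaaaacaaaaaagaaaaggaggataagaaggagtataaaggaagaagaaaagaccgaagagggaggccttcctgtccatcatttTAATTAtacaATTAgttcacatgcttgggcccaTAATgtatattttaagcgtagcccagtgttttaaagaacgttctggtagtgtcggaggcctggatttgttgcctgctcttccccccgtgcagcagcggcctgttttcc
Foxd3: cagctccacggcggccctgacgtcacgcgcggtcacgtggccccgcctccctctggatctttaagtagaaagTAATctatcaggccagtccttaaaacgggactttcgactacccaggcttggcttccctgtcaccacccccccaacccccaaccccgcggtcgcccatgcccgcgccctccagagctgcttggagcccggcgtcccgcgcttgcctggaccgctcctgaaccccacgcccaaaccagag
The Otx2 window held 4 matches, 42.0% G or C and 6 CpG, while the Foxd3 window held 1 match, 65.6% G or C and 21 CpG. Of all 32851 such windows in the mouse table, 54.9% held TAAT and 9.62% held 4 or more, with a median of 1 match, of 52.4% G or C and of 6 CpG. The longer form TAATCC, found in 6.25% of all windows, and the octamer ATGCAAAT of POU factors, found in 1.6%, were in neither. The table holds 3 more Otx2 windows, at starts inside the gene, which overlap exons and are not printed. They had 1, 2 and 10 TAAT matches, and the window with 10 also had 1 TAATCC. A match is a run of letters and not a binding site, and no binding was measured.

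Otx2, a paired-type homeodomain factor, was the member with the largest genotype difference on the log2(FPKM + 1) scale. Otx2 (ENSMUSG00000021848, chr14:48657679-48667644, minus strand, up to 6 exons) had 2.11, 3.25, 2.28 and 2.26 FPKM in iPHet libraries 1 to 4 and 6.55, 6.14, 7.04 and 6.81 FPKM in iPKO libraries 1 to 4. All 4 iPKO libraries were above all 4 iPHet libraries, and iPHet 2 was the highest of the control. The means of Otx2 were 2.47 ± 0.520 and 6.63 ± 0.385 FPKM (SD, n = 4 each), 2.68-fold higher in iPKO. On the log2(FPKM + 1) scale, which understates changes of low genes, the difference was 1.15 (SE 0.11). In odd libraries it was 1.29 and in even libraries 1.01. The authors' confidence bounds for Otx2 were also apart, with a highest upper bound of 3.88 FPKM in iPHet and a lowest lower bound of 5.36 in iPKO. Bulk RNA gives one value for all cells of a culture, so more cells with Otx2 RNA and more Otx2 RNA per cell cannot be told apart. The noncoding gene RP23-131O4.2, which lies 1643 bases from Otx2 on the other strand, had at most 0.0392 FPKM in any library.

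**Figure D1:**
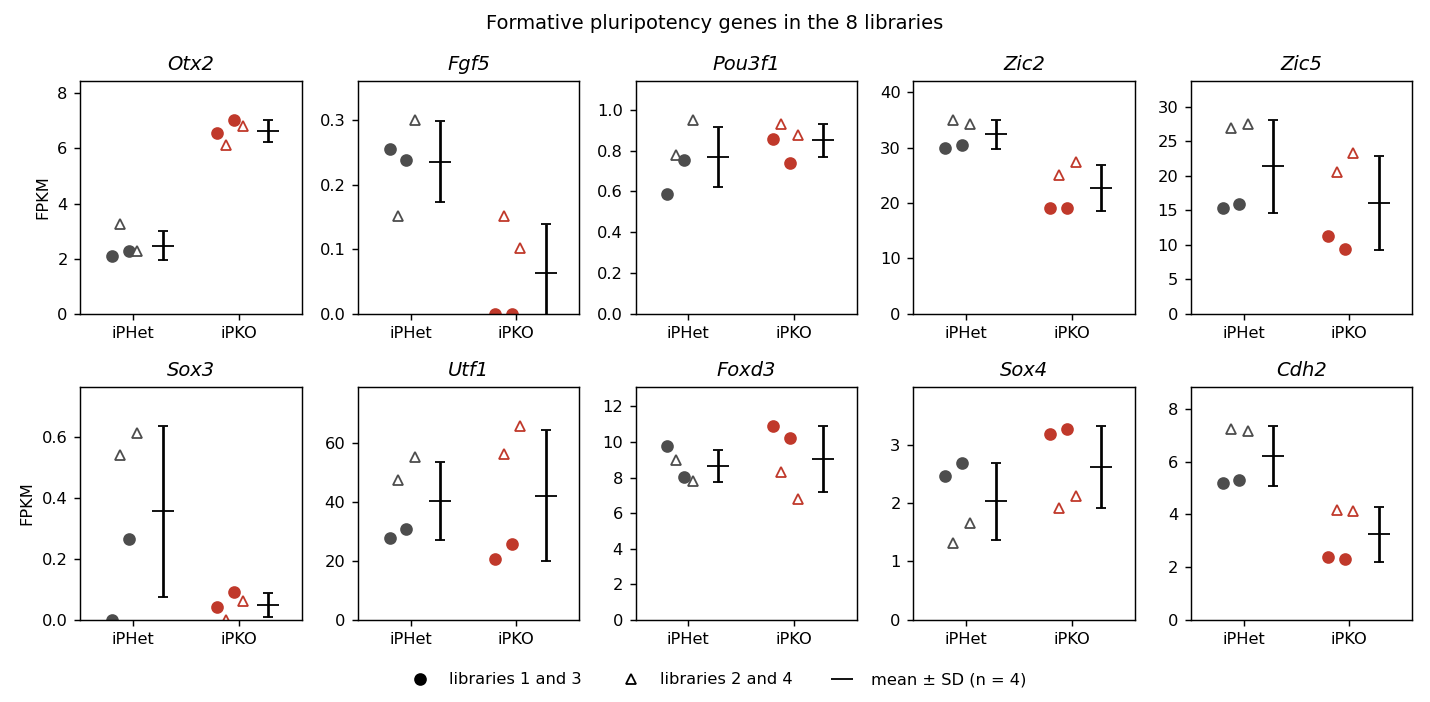
FPKM (vertical axes, each from 0 and on its own scale) of the 10 genes in each iPHet (grey) and iPKO (red) library, circles for libraries 1 and 3 and triangles for 2 and 4, with the mean ± SD (n = 4) as bars, cut at 0. Otx2 lies between 6.14 and 7.04 FPKM in iPKO against 2.11 to 3.25 in iPHet, Zic2 and Cdh2 lie lower in every iPKO library, and Zic5, Utf1 and Sox4 separate the circles from the triangles in both genotypes.

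The ZIC genes encode zinc finger factors that take part in enhancer use during the exit from the naive state, and both members of that family on the list had lower means in iPKO. Zic2 (ENSMUSG00000061524, chr14:122475435-122479852, plus strand) had 30.0, 35.0, 30.4 and 34.3 FPKM in iPHet and 19.0, 25.1, 19.1 and 27.4 in iPKO. All 4 iPKO libraries of Zic2 were below all 4 iPHet libraries. Its means were 32.4 ± 2.61 and 22.7 ± 4.23 FPKM (SD, n = 4 each), 1.43-fold lower in iPKO, with a log2 difference of -0.51 (SE 0.13), or -0.63 in odd and -0.39 in even libraries. Zic5 (ENSMUSG00000041703, chr14:122456795-122465677, minus strand) lies 9757 bases from Zic2 on the opposite strand, so that both genes point away from the interval between them. Zic5 had 15.3, 27.0, 15.9 and 27.5 FPKM in iPHet and 11.3, 20.6, 9.32 and 23.3 in iPKO. The genotypes overlapped for Zic5, because its odd libraries were low and its even libraries high in both. The Zic5 mean of even libraries was 1.75 times that of odd ones in iPHet and 2.13 times in iPKO, and its genotype difference was -0.43 on the log2 scale (SE 0.32), or -0.56 in odd and -0.30 in even libraries. The noncoding gene 2610035F20Rik, which lies between Zic5 and Zic2, was low at 0.517 ± 0.156 FPKM in iPHet and 0.409 ± 0.0962 in iPKO (SD, n = 4 each). Otx2, Zic2 and Zic5 are all on chromosome 14, which also holds Prmt5 (chr14:54507187-54517525). Whether position on this chromosome bears on their differences was not tested.

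Cdh2 encodes N-cadherin, an adhesion molecule of the same family as E-cadherin. Cdh2 (ENSMUSG00000024304) had 5.18, 7.23, 5.31 and 7.15 FPKM in iPHet and 2.37, 4.16, 2.30 and 4.14 in iPKO. All iPKO libraries were below all iPHet libraries, and in each genotype the even libraries were above the odd ones. The means of Cdh2 were 6.22 ± 1.13 and 3.24 ± 1.05 FPKM (SD, n = 4 each), 1.92-fold lower in iPKO, with a log2 difference of -0.79 (SE 0.19). In odd libraries that difference was -0.91 and in even libraries -0.67. Otx2 and Cdh2, both on the list of formative genes, thus differed between the genotypes in opposite directions.

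Utf1, a chromatin-bound factor of pluripotent cells, had the highest mean level of the members as deposited and had the widest even minus odd difference on the log2(FPKM + 1) scale, at 0.78 in iPHet and 1.36 in iPKO. Utf1 (ENSMUSG00000047751, chr7:139943789-139945112, plus strand) had 27.9, 47.4, 30.9 and 55.1 FPKM in iPHet and 20.6, 56.3, 25.7 and 65.8 in iPKO. The 2 lowest values were iPKO 1 and 3 and the 2 highest were iPKO 4 and 2, so the knockout libraries enclosed the whole control range. The Utf1 mean of even libraries was 1.74 times that of odd ones in iPHet and 2.64 times in iPKO. Its genotype difference was -0.34 in odd and 0.25 in even libraries, and -0.045 (SE 0.40) over all. The deposited Utf1 values also lay above their own upper confidence bounds in all 8 libraries, for example 27.9 FPKM with bounds of 8.84 and 11.3 in iPHet 1, so the Utf1 level itself is uncertain. Between 21.7% and 29.1% of genes at 1 FPKM or more in a library lay outside their own bounds, and among the 10 members Utf1 and Pou3f1 did so in all libraries.

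**Figure D2:**
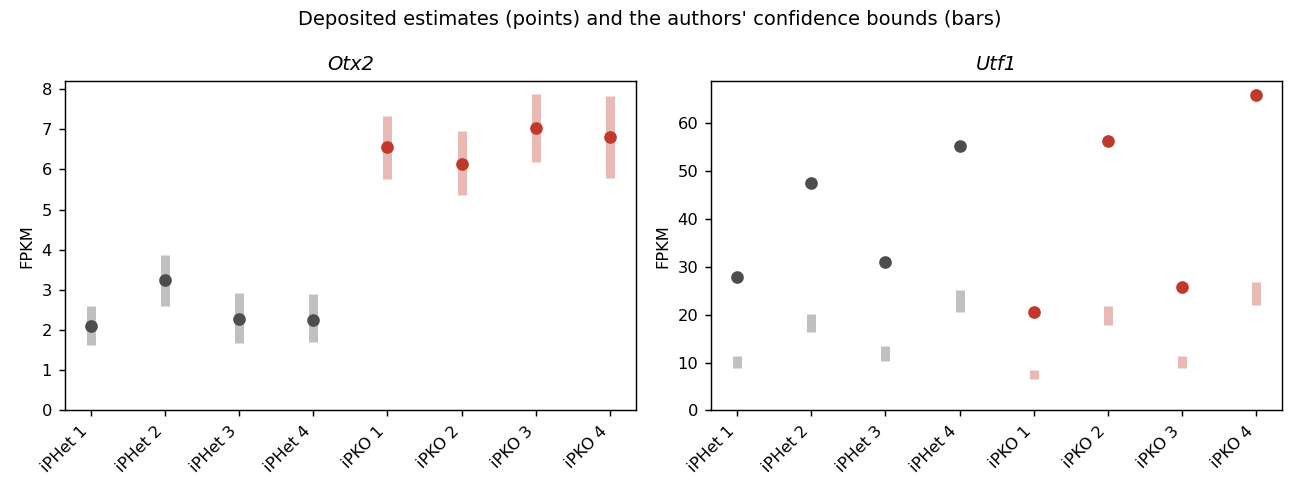
FPKM (vertical axes, from 0) of Otx2 (left) and Utf1 (right) in each library, with points for the deposited estimates and bars for the authors' confidence bounds, iPHet in grey and iPKO in red. The Otx2 points lie inside their bars and the bars of the genotypes do not meet, whereas all 8 Utf1 points lie above their bars.

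Foxd3, a forkhead repressor of pluripotent cells and later of the neural crest, differed little in its means. Foxd3 (ENSMUSG00000067261, chr4:99656299-99658671, plus strand, 1 exon) had 9.78, 8.97, 8.04 and 7.83 FPKM in iPHet and 10.9, 8.32, 10.2 and 6.82 in iPKO. The genotypes overlapped, with the 2 highest values and the lowest all in iPKO. Its means were 8.66 ± 0.898 and 9.04 ± 1.83 FPKM (SD, n = 4 each), and the log2 difference was 0.042 (SE 0.14), or 0.22 in odd and -0.14 in even libraries. Gm12688, a noncoding gene that starts 1315 bases from Foxd3 on the other strand, had 6.22 ± 0.996 FPKM in iPHet and 3.48 ± 1.39 in iPKO (SD, n = 4 each). Its log2 difference of -0.73 (SE 0.22) had a limma adjusted p of 0.0581, which is above the 0.05 used to call a gene. The Gm12688 values of the genotypes did not overlap, as for 25.1% of all genes tested. With the replicate number as a block its limma adjusted p was 0.0197.

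Sox4, an HMG-box factor of many progenitor cells, was slightly higher in iPKO in odd and in even libraries. Sox4 (ENSMUSG00000076431, chr13:28948919-28953713, minus strand, 1 exon) had 2.47, 1.31, 2.69 and 1.65 FPKM in iPHet and 3.18, 1.92, 3.27 and 2.12 in iPKO. Within the odd libraries and within the even libraries the iPKO values of Sox4 were the higher ones, yet the genotypes overlapped because the even libraries were lower in both. Its means were 2.03 ± 0.659 and 2.62 ± 0.701 FPKM (SD, n = 4 each). The log2 difference was 0.26 (SE 0.20), 0.24 in odd and 0.29 in even libraries, smaller than the difference of even minus odd libraries, which was -0.54 in iPHet and -0.48 in iPKO.

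**Figure D3:**
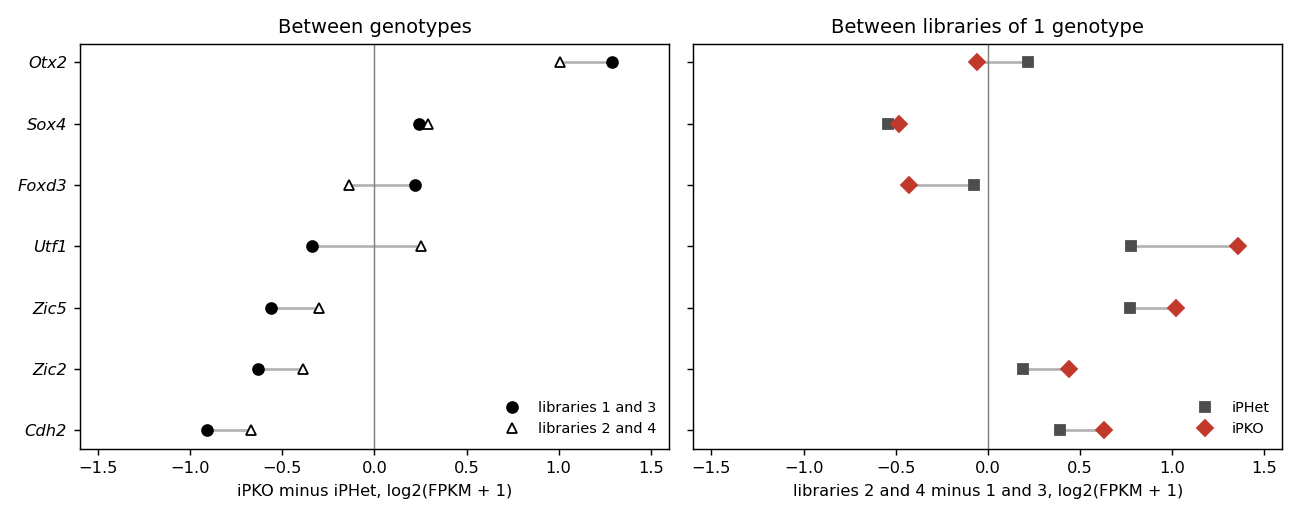
Differences on the log2(FPKM + 1) scale (horizontal axes) for the 7 members at 1 FPKM or more: iPKO minus iPHet within odd (circles) and even (triangles) libraries on the left, and even minus odd libraries within iPHet (squares) and iPKO (diamonds) on the right. Otx2 is at 1.29 and 1.01 on the left and near 0 on the right, whereas Utf1 changes side on the left and reaches 1.36 on the right.

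Fgf5, Pou3f1 and Sox3 did not reach a mean of 1 FPKM in either genotype and were not tested. Fgf5 (ENSMUSG00000029337, chr5:98254184-98277030, plus strand), the secreted factor that marks the epiblast after implantation, had 0.255, 0.152, 0.238 and 0.301 FPKM in iPHet. In iPKO it was listed at 0 in libraries 1 and 3 and had 0.152 and 0.102 FPKM in libraries 2 and 4, so the highest iPKO library and the lowest iPHet library were both at 0.152 FPKM. Sox3 (ENSMUSG00000045179, chrX:60891370-60893430, minus strand, 1 exon), a SOXB1 factor of early neural cells, was listed at 0 in iPHet 1 and had 0.543, 0.267 and 0.615 FPKM in iPHet 2 to 4. In iPKO its values were 0.0435, 0, 0.0916 and 0.0609 FPKM, below the other 3 control libraries. Pou3f1 (ENSMUSG00000090125, chr4:124657646-124660655, plus strand, 1 exon), the POU factor Oct6 that acts with Otx2, had 0.586, 0.780, 0.756 and 0.952 FPKM in iPHet and 0.856, 0.929, 0.741 and 0.878 in iPKO, with overlap. None of the values of these 3 genes carried a failed status, and no fold is given at levels this low. Means of Fgf5 and Sox3 were thus lower in the libraries in which Otx2 was higher. That of Pou3f1 was slightly higher there, at 0.851 FPKM in iPKO against 0.769 in iPHet. Sox3 in iPHet 2 and iPHet 4 lay above its own upper bounds of 0.402 and 0.461 FPKM, so its control mean is uncertain.

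Of the 10 genes, 7 entered the fit over the 12462 genes whose mean reached 1 FPKM in iPHet or iPKO. At an adjusted p under 0.05 by limma, Otx2 was called higher, Zic2 and Cdh2 lower and the other 4 not, against 15.8% of all genes called, 6.3% higher and 9.53% lower. The groups of 3 of the 7 did not overlap, against 25.1% of all genes tested. The members were chosen on this contrast, so nothing is read from these shares. The calls of Zic2 and Cdh2 were also lost without a filter on low values and with quantile normalization. On leaving out single libraries, Zic2 kept its call only without iPKO 2 or iPKO 4, and Cdh2 lost it without iPHet 2, iPHet 4, iPKO 1 or iPKO 3. The 7 members had a median log2 difference of -0.045, beside -0.044 over all genes tested. In 4 of the 7, Zic5, Utf1, Foxd3 and Sox4, the difference between odd and even libraries was larger than that between the genotypes, and in 5 the genotype difference had the same sign in odd and even libraries. With libraries 1 and 3, and 2 and 4, averaged and an odd/even term over 11171 protein-coding genes, 198 genes (1.77%) were called, Otx2 as the single member among them. With the pairs averaged and no such term, 7 genes were called and no member was. With the replicate number as a block, 27.5% of genes were called, among them Otx2 and Sox4 higher and Zic2, Zic5 and Cdh2 lower. The labels do not give a pairing by number, so all calls with this block, here and elsewhere, rest on a pairing taken from the data.

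The genes whose pattern was most like that of Otx2 were sought among 11170 other protein-coding genes, by the root mean square difference of centred log2 values over the 8 libraries. The 5 nearest were Snapc4 (0.13), which encodes a subunit of the complex for snRNA gene transcription, Dzip1l (0.14), a gene of cilia, Aire (0.15), the transcriptional regulator of thymic tolerance, Il11ra1 (0.15), a cytokine receptor chain, and Prpf39 (0.15), a splicing factor of the U1 particle. Snapc4 had 26.1 ± 1.81 FPKM in iPHet and 56.4 ± 1.54 in iPKO, and Prpf39 had 12.1 ± 0.665 and 28.0 ± 1.35 (SD, n = 4 each). Values of Snapc4 and Aire lay above their own upper bounds in 4 of the 8 libraries each, and those of Dzip1l in 1. Each of the 5 had no overlap between the genotypes, as their likeness to Otx2 entails. Aire overlaps Dnmt3l, Il11ra1 overlaps Galt and others, Prpf39 overlaps Fkbp3 and Snapc4 overlaps Gm13562, and the authors' use of strand is not given, so such genes may share reads. Of the 6 other members compared, the nearest to Otx2 was Sox4 at rank 2629 of 11170, and Cdh2 stood at rank 10967.

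The other genes of the same pathway were described from 5 lists, compiled with earlier results of these data known. The 68 distinct genes gave 56 that were tested, of which 2 rose, 6 fell and 48 were not called, with a median log2 difference of -0.079. Over all genes tested 15.8% were called, 6.3% higher and 9.53% lower. Of 16 other genes of the formative or primed state, 15 were tested and 1 fell, with a median log2 difference of -0.18. Etv5, an ETS factor downstream of FGF, fell from 81.5 ± 9.55 FPKM in iPHet to 59.8 ± 8.69 in iPKO (SD, n = 4 each), a log2 difference of -0.44 (SE 0.12, limma adjusted p = 0.0441). This call was lost on leaving out any library except iPKO 4, with adjusted p of 0.0555 to 0.107, and also without a filter on low values (adjusted p = 0.067) or with quantile normalization (adjusted p = 0.0737). Dnmt3b, the de novo DNA methyltransferase that increases after implantation, had 41.0 ± 11.3 and 29.0 ± 2.72 FPKM, and Dnmt3a had 10.4 ± 4.23 and 10.4 ± 0.833, both without a call. Limma with the replicate number as a block called 4 of the 15 lower (Dnmt3b, Sox11, Etv5 and Hes6) and Grhl2 higher. Of all 12462 genes this fit called 27.5%, 2072 lower and 1355 higher. For Dnmt3b the limma adjusted p with this block was 0.0439. Grhl2 had 0.742 ± 0.162 FPKM in iPHet and 1.34 ± 0.272 in iPKO (SD, n = 4 each), without overlap. Lef1, a nuclear partner of beta-catenin that was picked out after its values were seen, was below the level for testing with 0.618 to 1.26 FPKM in iPHet and 0.248 to 0.281 in iPKO.

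All 15 naive pluripotency genes were tested, and 2 fell and none rose, with a median log2 difference of -0.10. Tcl1, a cofactor of the kinase AKT, fell from 80.4 ± 5.14 to 60.8 ± 4.44 FPKM, a log2 difference of -0.40 (SE 0.074, limma adjusted p = 0.0107, n = 4 each). Dppa3, a maternal and germ cell factor also called Stella, fell from 28.4 ± 1.27 to 19.7 ± 3.16 FPKM, a log2 difference of -0.52 (SE 0.11, limma adjusted p = 0.0162, n = 4 each). Both calls held without any single library. Nanog had 313 ± 26.2 and 319 ± 13.4 FPKM, Klf4 161 ± 30.9 and 161 ± 25.8, and Tfcp2l1 191 ± 17.0 and 196 ± 36.6, differences within the spread of the libraries. Esrrb (257 ± 16.8 and 224 ± 8.35 FPKM) and Nr5a2 (28.4 ± 0.548 and 25.1 ± 1.51) were lower in every iPKO library without a call, and Klf2 and Klf5 had log2 differences of -0.41 and -0.33. The values of Klf2 and Klf5 lay above their own upper bounds in all 8 libraries, so their levels are uncertain. With the replicate number as a block, limma called 5 of the 15 lower (Dppa3, Tcl1, Klf5, Esrrb and Zfp42) and Tbx3 higher. Of all 12462 genes this fit called 27.5%, 2072 lower and 1355 higher.

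Among 16 regulators of the exit from the naive state, all tested, 2 rose and 1 fell, with a median log2 difference of 0.007. Tsc1, a subunit of the complex that restrains mTORC1, rose from 13.4 ± 0.828 to 19.4 ± 0.456 FPKM, a log2 difference of 0.50 (SE 0.059, limma adjusted p = 0.00199, n = 4 each). Ptpn11, which encodes the phosphatase SHP2 between FGF receptors and ERK, fell from 23.4 ± 1.56 to 15.9 ± 0.689 FPKM, a log2 difference of -0.53 (SE 0.065, limma adjusted p = 0.00221, n = 4 each). Fgfr1, the main FGF receptor of embryonic stem cells, rose from 46.3 ± 2.65 to 55.7 ± 2.95 FPKM, a log2 difference of 0.26 (SE 0.065, limma adjusted p = 0.0302, n = 4 each). The Fgfr1 call was lost on leaving out iPHet 1, 2 or 3 or iPKO 1, 3 or 4, with adjusted p of 0.0554 to 0.0760, while those of Tsc1 and Ptpn11 held without any single library. Zfp281, a zinc finger factor of the exit, was listed at 0 as a failed estimate in iPHet 1 and iPKO 1 and at 16.5 to 23.8 FPKM elsewhere, so its test says little. With the replicate number as a block, limma called 3 of the 16 regulators higher and 3 lower, against 27.5% of all genes called.

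**Figure D4:**
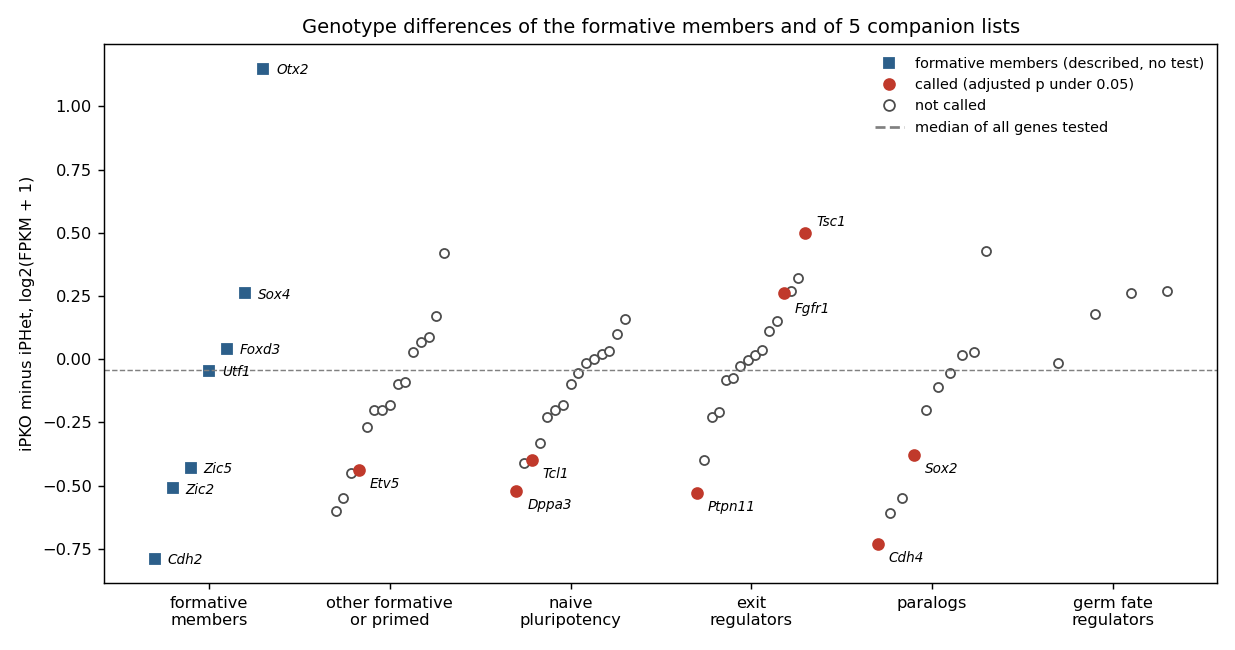
Difference between the genotypes on the log2(FPKM + 1) scale (vertical axis, iPKO minus iPHet) for the 7 members at 1 FPKM or more (blue squares) and the tested genes of 5 related lists (red where called by limma, open where not), ordered by size within a list, with the dashed line at -0.044 for the median of all genes. Otx2 at 1.15 lies above every gene of the 5 lists, and Tsc1 and Fgfr1 are the 2 genes called higher among them.

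Of 21 paralogs of the members, genes of the same families, 10 were tested and 2 fell. Sox2, the SOXB1 factor of pluripotent cells and a relative of Sox3, fell from 91.8 ± 5.31 to 70.1 ± 2.15 FPKM, a log2 difference of -0.38 (SE 0.060, limma adjusted p = 0.00539, n = 4 each), a call that held without any single library. The deposited Sox2 values lay above their own upper bounds in all 8 libraries, as for Utf1, so the Sox2 level is uncertain too, and Sox2 overlaps the noncoding Sox2ot. Cdh4, the R-cadherin related to Cdh2, fell from 1.53 ± 0.464 to 0.515 ± 0.184 FPKM, a log2 difference of -0.73 (SE 0.17, limma adjusted p = 0.0234, n = 4 each). The Cdh4 call was lost without iPHet 1, iPHet 3, iPKO 1 or iPKO 4, with adjusted p of 0.0573 to 0.063. Otx1, the closest relative of Otx2, had 1.58 ± 0.173 FPKM in iPHet and 1.44 ± 0.544 in iPKO, a log2 difference of -0.11 (SE 0.17), and Crx of the same family had at most 0.0137 FPKM. Cdh1, E-cadherin, had 124 ± 22.8 and 109 ± 24.4 FPKM, Cdh3 had 2.78 ± 0.200 and 2.82 ± 0.147, and Fgf4 had 206 ± 13.2 and 198 ± 11.4, all without a call. Sox1 (1.01 ± 0.178 and 1.71 ± 0.325 FPKM, limma adjusted p = 0.0524), Sox11 (4.62 ± 0.964 and 2.87 ± 0.843, adjusted p = 0.0797) and Sox12 (11.3 ± 2.24 and 7.13 ± 1.92, adjusted p = 0.0661) did not overlap between the genotypes but were not called. Of all genes tested, 25.1% had no overlap and 15.8% were called. With the replicate number as a block, Sox1, Sox11 and Sox12 were called (limma adjusted p of 0.0306, 0.00727 and 0.00461), as were Cdh1 (0.0276) and 27.5% of all genes. The Sox11 values, like those of Sox2, lay above their own upper bounds in all 8 libraries. The median log2 difference of the tested paralogs was -0.15, and Fgf8, below the level for testing, was at 0.0992 to 0.575 FPKM in iPHet and listed at 0 in all iPKO libraries.

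The series concerns the specification of germ cells, for which Otx2 is a known barrier, and 4 regulators of germ fate were therefore listed. None was called in the fit without a block, and their median log2 difference was 0.22. Tfap2c, the AP-2 gamma factor, had 43.2 ± 1.98 and 49.1 ± 5.26 FPKM (limma adjusted p = 0.194, n = 4 each). Its values lay above their own upper bounds in 6 libraries. Prdm1, the repressor BLIMP1, had 2.63 ± 0.550 and 3.38 ± 0.662 FPKM (limma adjusted p = 0.242, n = 4 each). Prdm1 was called higher with the replicate number as a block (limma adjusted p = 0.0311), a fit that called 27.5% of all genes. None of the 8 calls in the 5 lists was left in the fit of pair averages with an odd/even term.

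Several members also mark cells other than pluripotent ones, and the level of other cell types was read from marker lists. Summed trophoblast markers were 7.07 to 11.3 FPKM in iPHet and 11.4 to 18.9 in iPKO, and of 6 markers 2 were tested and none called. Eomes made up most of that sum, at 8.58, 6.11, 9.45 and 5.93 FPKM in iPHet and 14.3, 9.74, 14.9 and 9.92 in iPKO without overlap (limma adjusted p = 0.0567). With the replicate number as a block Eomes was called higher (limma adjusted p = 0.00332). Tfap2a, the other tested one, had 0.447 to 0.845 FPKM in iPHet and 1.01 to 1.39 in iPKO, again without overlap. It was called in neither fit (limma adjusted p = 0.0806, and 0.0876 with the block). Of all genes tested, 25.1% had no overlap. Cdx2 was at most 0.559 FPKM and Elf5 at most 0.480. Summed neuroectoderm markers were 20.4 to 23.8 FPKM in iPHet and 15.4 to 16.7 in iPKO, and of 6 markers 3 were tested and 2, Nes and Olig2, fell. The third tested, Sox1, was higher in every iPKO library (0.896 to 1.28 against 1.37 to 2.06 FPKM), while Neurog2 was at most 0.0476 FPKM. Primitive endoderm markers summed to 4.76 to 6.07 and 3.66 to 5.41 FPKM, with 1 of 7 tested and none called, and Foxa2 was listed at 0 in 5 of 8 libraries. Mesoderm and streak markers summed to 0.953 to 1.23 and 0.718 to 0.932 FPKM, with none of 5 at the level for testing. The part of such cells in the levels of the members was not tested.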

How the data were processed

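Total RNA of 4 iPHet and 4 iPKO samples was made into libraries with the Illumina TruSeq RNA kit and read as paired ends, per the labels' protocols. Per the file headers, the authors deposited a status, bounds and FPKM for each gene in each library. Trimmomatic and the build mm10 are named, per the submitters' processing notes. The program behind the FPKM, the aligner, versions, scaling between libraries and use of strand were not given in the sources used here. FPKM from a library that was scaled differently, or from genes that share reads, would be shifted.

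Each file held 39013 rows for 38991 identifiers, 96% of them in GENCODE vM21, and rows of 1 identifier at several loci were summed. Because the files held FPKM and not counts, log2(FPKM + 1) was fitted in R 4.3.3 by limma 3.58.1 (trend by intensity). Tested were the 12462 genes whose mean reached 1 FPKM in iPHet or iPKO. The fit took all 8 libraries without covariates, and a call needed an adjusted p (Benjamini-Hochberg) under 0.05. The script was tested on simulated data with independent libraries, a setting that leaves out the pairing of libraries seen here. Fold values are ratios of mean FPKM. The absolute depth is unknown. Ratios of low values gave depths of 0.774 to 1.26 relative to iPHet 1, without a step sharp enough in every library to recover reads, so no counting interval is given. Failed estimates numbered 2 to 5 rows in each library.

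Deviations from the group means correlated at 0.104, 0.162, 0.204 and 0.107 for libraries numbered alike across the genotypes. All are over 0.1, so the numbers were taken to pair the libraries, which rests on the data alone, since the labels are silent. For odd with odd or even with even libraries of unlike number the values were 0.077 to 0.124, so number and odd/even order are not clearly separated.

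The members and all lists were chosen with earlier results of these data known. Named genes were the 10 members, Prmt5, the called genes of each list or else the 2 with the smallest p, paralogs of at least 1 FPKM and the 5 genes most like Otx2. Some genes counted in the lists are not reported here by name. Neighbouring noncoding genes, markers of other cell types and the naive genes other than Tcl1 and Dppa3 were named outside this rule. So were Dnmt3a, Dnmt3b, Grhl2, Hes6, Lef1, Fgf8 and Zfp281. All of these were named after their values were seen. Promoter windows were in the RefSeq table (GRCm38.p6) for 6 of the 10 members, and the motifs were chosen after the windows were read. Alternatives were another pseudocount, other filters, quantile normalization, the replicate block, pair averages, an odd/even term and leaving out each library.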

Additional observations from a re-analysis of the deposited data

Results flagged for a closer look

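In 68 groups of 4 libraries, the gap of the highest or lowest library to its neighbour was divided by the range of the group and compared with Dixon's critical value for groups of this size. Chance passes about 5% of such groups, and 3 passed here. Otx2 in iPHet 2 was 3.25 FPKM with its nearest neighbour at 2.28 (ratio 0.847). Without that library the log2 difference of Otx2 was 1.25. Dppa3 in iPHet 4 was 30.3 FPKM with its nearest neighbour at 27.9 (ratio 0.867). Sox1 in iPHet 2 was 1.28 FPKM with its nearest neighbour at 0.951 (ratio 0.854).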

How the results depend on the processing

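The log2 difference of Otx2 was 1.15, kept its direction in all 16 alternatives and ran from 1.10 to 1.41, the highest with a pseudocount of 0.1. Its call was kept in 15 of the 16 and lost with pair averages without an odd/even term. Otx2 was chosen on this contrast, so nothing is read from its call. The calls depended on how the library pairs were treated. In place of 1973 called genes, the paired fit with the replicate number as a block gave 3427, an odd/even term 4729, pair averages 7, and such averages with an odd/even term, over protein-coding genes, 198. For the 5 related lists the 8 calls became 23 in the block fit, 29 with the odd/even term and 0 in both fits of pair averages. Leaving out single libraries gave 1264 to 1416 genes in all (1264 without iPHet 4 and 1309 without iPKO 1) and 5 to 7 in the lists (5 without iPHet 1, iPHet 3 or iPKO 1). Fits without a library use fewer samples, and the cause of the other shifts was not tested. Of the members 3 were called, 0 to 5 over the alternatives and 1 to 3 without single libraries. Quantile normalization called 936 genes higher and 946 lower, against 785 and 1188, with 1 member among them. No setting moved the median of all genes by more than 0.04 on the log2 scale.

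Levels under 1 FPKM limit what can be said of Fgf5, Sox3 and Pou3f1, and the pairing of libraries limits every p.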
